A study of Citrus trifoliata with 6 samples.

Results

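The circadian clock and light response genes of trifoliate orange roots were selected by annotation. A gene was taken when its best protein match carried the name of a clock component (GIGANTEA, pseudo-response regulators, LHY, LUX, early flowering), of a clock output regulator (CONSTANS, cycling DOF), or of a photoreceptor or blue-light F-box protein (phytochrome, cryptochrome, phototropin, adagio). The search returned 48 of the 22589 genes listed with reads in at least 1 library. Of these, 28 were matched only because the letters "lux" occur inside influx or efflux. They are auxin carriers and other transporters with no clock or light word in their annotation, and they were counted apart. The remaining 20 genes are 1 GIGANTEA gene, 5 pseudo-response regulators, 1 adagio gene, 4 CONSTANS-like genes, 5 phytochrome genes and phytochrome partners, 1 cryptochrome gene, 2 phototropin genes and 1 gene named early flowering 5. No gene was matched by LHY as a word, by LUX as a word, by circadian or by cycling DOF.

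The study compared lateral roots of Poncirus trifoliata inoculated with the arbuscular mycorrhizal fungus Glomus versiforme (Gv, 3 libraries, 3000 spores per pot) and uninoculated roots (Ck, 3 libraries). Both were grown with 20 μM phosphorus and sampled 3 months after inoculation, and each biological replicate pooled at least 9 plants. RNA of whole lateral roots was sequenced, so that fewer cells of a type and less RNA per cell cannot be told apart. The replicates are numbered 1 to 3 in each condition, and the sources used here, which place the plants in a greenhouse, do not say what a number stands for, at what time of day a replicate was harvested or what the day length was.

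In Arabidopsis, where the plant clock is best known, the MYB proteins LHY and CCA1 peak around dawn, pseudo-response regulators follow through the day in the order PRR9, PRR7, PRR5 and PRR1 (TOC1), and GIGANTEA and the F-box protein FKF1 act in the afternoon and early evening. These proteins repress or stabilise one another in a loop that runs through a day, and the transcripts of most of them change strongly with the time of day. Phytochromes sense red and far-red light, and cryptochromes, phototropins and the adagio (ZTL and FKF1) proteins sense blue light. Phytochromes, cryptochromes and ZTL pass light signals to the clock. Roots hold a clock of their own that is tied to that of the shoot.

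The libraries held 4.34 to 4.71 M reads on genes and listed 20207 to 20566 genes each. Both libraries of replicate 3 stood apart from the rest: the chi-square of the read counts per gene was 20.7 to 39.3 for each pair with a replicate 3 library and 3.67 to 8.06 for each pair within replicates 1 and 2. The label Gv was checked with 2 phosphate transporter genes of colonized root cells, whose summed level was 165, 180 and 1054 RPKM (reads scaled by the gene's length in kilobases and by the reads on all genes of the library) in Gv replicates 1, 2 and 3, against 0.269, 0.129 and 0 RPKM in Ck replicates 1, 2 and 3. The 8 marker genes of green shoot tissue summed to 102 to 144 RPKM in Gv and 111 to 126 RPKM in Ck, and 1 Rubisco small subunit gene (Cs4g03580) made up 80.8% to 95.6% of that sum. The other 7 are chlorophyll-binding genes, which summed to 6.37 RPKM in Gv replicate 3, against 11.5 and 18.6 RPKM in Gv replicates 1 and 2, and to 7.86 RPKM in Ck replicate 3, against 23.6 and 11.2 RPKM in Ck replicates 1 and 2. Of these 7, 4 had replicate 3 below replicates 1 and 2 in both conditions, such as Cs2g19680 with 10 reads in Gv replicate 3, against 22 and 65 in Gv replicates 1 and 2, and 16 in Ck replicate 3, against 101 and 32 in Ck replicates 1 and 2. The gene Cs4g07150 had at most 2 reads in any library. The part of green tissue or its genes in the differences of replicate 3 was not tested. All 3 Casparian strip genes of the root endodermis were detected in every library, with a summed level of 2.36 to 4.75 RPKM in Gv and 3.77 to 9.72 RPKM in Ck. The part of the amount of colonized tissue in the differences of Gv replicate 3 was not tested either.

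Among the 20 clock and light genes, 18 passed the filter on low counts and were tested. The share of all reads that fell on the 20 genes was 0.141% in Gv replicate 3, against 0.215% and 0.221% in Gv replicates 1 and 2. It was 0.157% in Ck replicate 3, against 0.198% and 0.201% in Ck replicates 1 and 2. In replicate 3 of both conditions the summed share was thus smaller. GIGANTEA, APRR5 and PRR73 had 2105, 974 and 1308 of the 9444 reads in Gv replicate 1. In Gv replicate 3 they had 417, 105 and 380 of 6107. In Ck replicate 1 they had 1872, 613 and 1220 of 8928, and in Ck replicate 3 they had 517, 132 and 674 of 7159. The smaller sum is that of these 3 genes and not a fall across the group. Replicates 1 and 2 were close to each other within a condition, with a median fold between them of 1.07 in Gv (highest 1.64, PRR7) and 1.1 in Ck (highest 2.51, the CONSTANS-like gene CO1, on 12 and 5 reads).

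The first question is how replicate 3 differed from replicates 1 and 2, a contrast picked with earlier results of these data known. Of the 18 tested genes, 6 were lower in replicate 3 in the edgeR quasi-likelihood fit over all 6 libraries (adjusted p under 0.05 over all genes and at least a 2-fold change), and 0 were higher. They are GIGANTEA, the pseudo-response regulators annotated APRR5, PRR9 and PRR73, adagio 3 and CONSTANS-LIKE 4. The same fit called 9.71% of the 16281 genes tested in either direction, and 5.57% as lower. The median log2 fold change of the 18 genes was -0.07, against 0.01 over all genes tested, since 9 of the 18 lay below 0 and 9 above. Each condition has 1 library of replicate 3, so the fit takes its spread from both conditions together.

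GIGANTEA (Cs3g21790) encodes a large plant protein that binds FKF1 and ZTL in light and, in Arabidopsis, peaks late in the day. It had 7.86 RPKM in Gv replicate 3, against 39.2 and 44.3 RPKM in Gv replicates 1 and 2, and 9.27 RPKM in Ck replicate 3, against 34.0 and 39.2 RPKM in Ck replicates 1 and 2. These rest on 417 reads in Gv replicate 3, against 2105 and 2505 in Gv replicates 1 and 2, and on 517 reads in Ck replicate 3, against 1872 and 2259 in Ck replicates 1 and 2. Both replicate 3 libraries lay far below all 4 others, and the conditions overlapped. The log2 fold change of replicate 3 was -2.24 (SE 0.16, adjusted p = 0.00287), which is 4.72-fold lower. Reads covered 24.0% and 24.4% of the listed gene length of 12220 bp in Gv and Ck replicate 3, and 30.1% to 31.3% in the other libraries, so that the RPKM is set on a length of which most carried no reads.

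**Figure D1:**
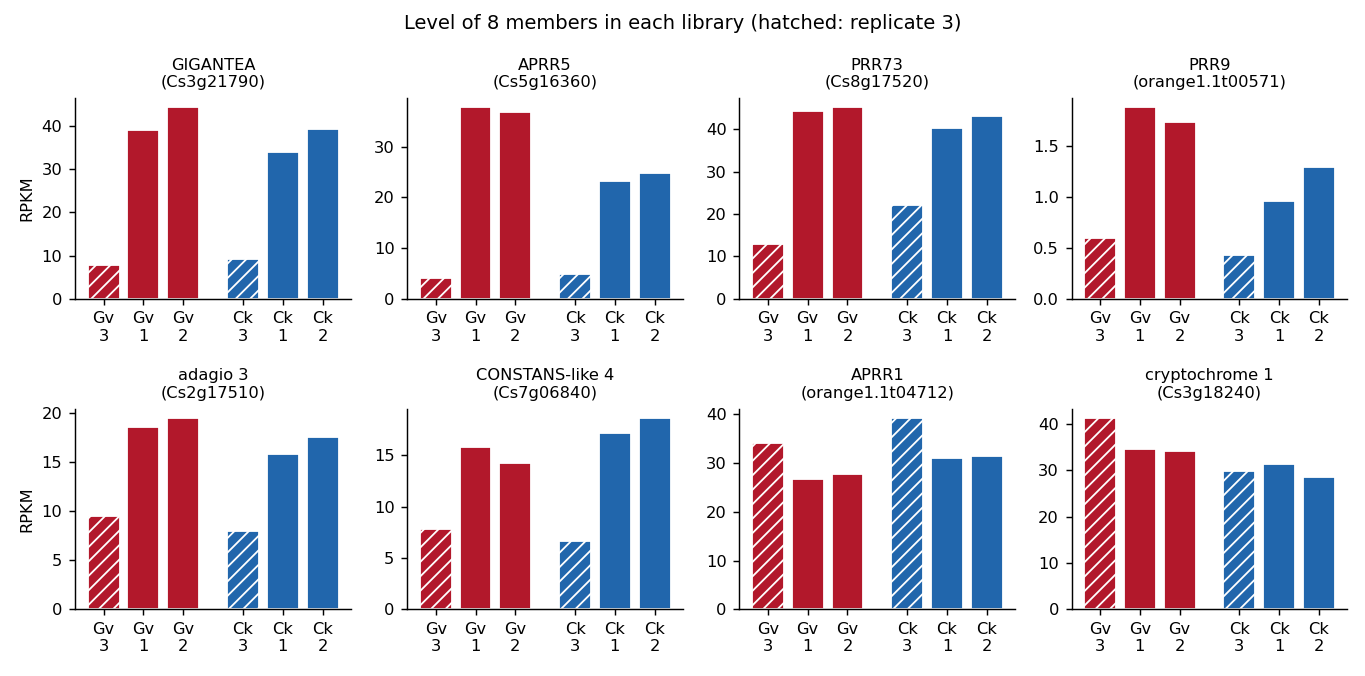
Level in RPKM (vertical axis, from 0, with its own scale in each panel) of 8 clock and light genes in the 3 Gv libraries (red) and the 3 Ck libraries (blue), 1 bar per library, with replicate 3 hatched. In the panels of GIGANTEA, APRR5, PRR73, PRR9, adagio 3 and CONSTANS-LIKE 4 both hatched bars are the lowest of their condition, in that of APRR1 they are the highest, and in that of cryptochrome 1 all 3 Gv bars stand above all 3 Ck bars.

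The pseudo-response regulators are repressors of clock MYB genes. The gene annotated APRR5 (Cs5g16360) had the lowest fold change of all 18 genes. Its level was 4.12 RPKM in Gv replicate 3, against 37.7 and 36.8 RPKM in Gv replicates 1 and 2, and 4.93 RPKM in Ck replicate 3, against 23.1 and 24.9 RPKM in Ck replicates 1 and 2. The replicate 3 libraries, with 105 reads in Gv and 132 in Ck, were close to each other, whereas Gv replicates 1 and 2 were above Ck replicates 1 and 2. The log2 fold change of replicate 3 was -2.76 (SE 0.21, adjusted p = 0.0032), or 6.78-fold lower, and it ranked 87 from the lowest of the 16281 genes tested.

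PRR73 (Cs8g17520), annotated as a pseudo-response regulator by its protein match and as PRR7 by its KEGG entry, had the highest mean level of the 18 genes. It had 13.0 RPKM in Gv replicate 3, against 44.3 and 45.1 RPKM in Gv replicates 1 and 2, and 22 RPKM in Ck replicate 3, against 40.3 and 43.0 RPKM in Ck replicates 1 and 2. Both replicate 3 libraries were below the other 4, and the Gv one was below the Ck one. The log2 fold change of replicate 3 was -1.38 (SE 0.20, adjusted p = 0.00772). Without Gv replicate 3 it was -0.99, just short of the 2-fold limit. The PRR9 gene (orange1.1t00571), whose KEGG entry names it PRR5, was at the low end of the group and had 12 reads in Gv replicate 3, against 38 and 37 in Gv replicates 1 and 2, and 9 reads in Ck replicate 3, against 20 and 28 in Ck replicates 1 and 2. Its log2 fold change was -1.54 (SE 0.30, adjusted p = 0.0158). The adjusted p was no longer under 0.05 without Gv replicate 1, without Gv replicate 3 or without Ck replicate 3, so that the call was lost in each of those fits. The call was also lost in an alternative fit, limma on log2(RPKM + 0.5), at a log2 fold change of -0.93.

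The other pseudo-response regulators, PRR7 and APRR1, were not called. PRR7 (Cs7g27910) had 25 reads in Gv replicate 3, against 39 and 25 in Gv replicates 1 and 2, and 23 in Ck replicate 3, against 36 in each of Ck replicates 1 and 2, with a log2 fold change of -0.51 (adjusted p = 0.24) and a 95% interval from -1.21 to 0.18. APRR1 (orange1.1t04712), the counterpart of Arabidopsis TOC1, which represses LHY and CCA1 in the evening, had 34.1 RPKM in Gv replicate 3, against 26.7 and 27.8 RPKM in Gv replicates 1 and 2, and 39.1 RPKM in Ck replicate 3, against 31.0 and 31.5 RPKM in Ck replicates 1 and 2. In both conditions APRR1 was thus highest in replicate 3, although its log2 fold change of 0.27 did not pass (adjusted p = 0.0829). The 95% interval, from 0.05 to 0.50, lies apart from those of GIGANTEA (-2.63 to -1.85) and APRR5 (-3.27 to -2.25).

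Ratios of 2 genes within 1 library do not depend on the scaling of that library. The RPKM of GIGANTEA over that of APRR1 was 0.231 in Gv replicate 3, against 1.47 and 1.59 in Gv replicates 1 and 2, and 0.237 in Ck replicate 3, against 1.09 and 1.25 in Ck replicates 1 and 2. APRR5 over APRR1 was 0.121 in Gv replicate 3, against 1.41 and 1.32 in Gv replicates 1 and 2, and 0.126 in Ck replicate 3, against 0.745 and 0.790 in Ck replicates 1 and 2. Both ratios were thus lower in replicate 3 of each condition than in either of its other replicates.

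Adagio 3 (Cs2g17510), named FKF1 by its KEGG entry, is a blue-light F-box protein that pairs with GIGANTEA in Arabidopsis. It had 9.51 RPKM in Gv replicate 3, against 18.6 and 19.4 RPKM in Gv replicates 1 and 2, and 7.93 RPKM in Ck replicate 3, against 15.8 and 17.5 RPKM in Ck replicates 1 and 2. The change had nearly the same size in both conditions, and the log2 fold change was -1.08 (SE 0.11, adjusted p = 0.00448). In an alternative fit, limma on log2(RPKM + 0.5), it was -0.99, and the call was lost. The gene named early flowering 5 (Cs5g04480), whose KEGG entry is a WW domain-binding protein and which is no part of the evening complex of the clock, had 23.3 RPKM in Gv replicate 3, against 20.5 and 21.5 RPKM in Gv replicates 1 and 2, and 27.4 RPKM in Ck replicate 3, against 22 and 19.4 RPKM in Ck replicates 1 and 2. Its log2 fold change of 0.23 did not pass (adjusted p = 0.14).

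CONSTANS-like proteins are zinc finger regulators, some of which link the clock to day length. CONSTANS-LIKE 4 (Cs7g06840) had 7.81 RPKM in Gv replicate 3, against 15.8 and 14.2 RPKM in Gv replicates 1 and 2, and 6.64 RPKM in Ck replicate 3, against 17.2 and 18.6 RPKM in Ck replicates 1 and 2. Replicate 3 was again the lowest in each condition, with a log2 fold change of -1.23 (SE 0.17, adjusted p = 0.00708), which was -0.97 without Ck replicate 3. CO1 (Cs6g19280) had 3 reads in Gv replicate 3, against 10 and 15 in Gv replicates 1 and 2, and 4 in Ck replicate 3, against 12 and 5 in Ck replicates 1 and 2. Its log2 fold change of -1.55 had a 95% interval from -2.89 to -0.21 and did not pass after adjustment over all genes (adjusted p = 0.093). CONSTANS-LIKE 14 (Cs7g02880) differed little, with 12.3 RPKM in Gv replicate 3, against 10.2 and 13.8 RPKM in Gv replicates 1 and 2, and 17.5 RPKM in Ck replicate 3, against 13.6 and 14.9 RPKM in Ck replicates 1 and 2 (log2 fold change 0.12, adjusted p = 0.58). CONSTANS-LIKE 12 (Cs2g21930) did not pass the filter and had 0, 3 and 4 reads in Gv replicates 1, 2 and 3, against 0 in each Ck library.

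None of the photoreceptor genes was called, where 9.71% of all genes tested were. They are so few that the lack of a call does not set them apart from this share. Among the phytochrome genes and partners, 5 were tested, and their log2 fold changes in replicate 3 ran from 0.08 to 0.49. The gene annotated phytochrome (Cs6g01650), phytochrome A by its KEGG entry, was the most abundant of them, with 24.8 RPKM in Gv replicate 3, against 26.6 and 25.7 RPKM in Gv replicates 1 and 2, and 31.5 RPKM in Ck replicate 3, against 26.0 and 24.3 RPKM in Ck replicates 1 and 2. Phytochrome C (Cs2g19400) was highest in replicate 3 of both conditions and its adjusted p was 0.043, but its log2 fold change of 0.42 is under the limit. Phytochrome B (Cs2g03990) had a log2 fold change of 0.49 (adjusted p = 0.0946). The KEGG entries name these last genes phytochrome B and phytochrome E, so that which phytochrome each one is remains uncertain. The phytochrome A-associated F-box gene (Cs5g33120) is listed with 20648 bp and carries a beta-glucosidase KEGG entry, so that its reads may not all be of an F-box gene.

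Cryptochrome 1 (Cs3g18240), a blue-light receptor, had 41.2 RPKM in Gv replicate 3, against 34.6 and 34.1 RPKM in Gv replicates 1 and 2, and 29.9 RPKM in Ck replicate 3, against 31.4 and 28.6 RPKM in Ck replicates 1 and 2. Its log2 fold change of replicate 3 was 0.09 (adjusted p = 0.62), and it was -0.07 without Gv replicate 3. Phototropin 1 (Cs8g17540), which directs growth and plastid movement towards blue light, had 3.20 RPKM in Gv replicate 3, against 3.32 and 2.78 RPKM in Gv replicates 1 and 2, and 2.66 RPKM in Ck replicate 3, against 3.99 and 3.06 RPKM in Ck replicates 1 and 2 (log2 fold change -0.21, adjusted p = 0.44). Phototropin 2 (Cs8g01040) did not pass the filter, with 2 to 13 reads per library. The photoreceptor genes thus showed no change of the size seen for GIGANTEA and APRR5, and their 95% intervals lay between -0.65 and 0.91.

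**Figure D2:**
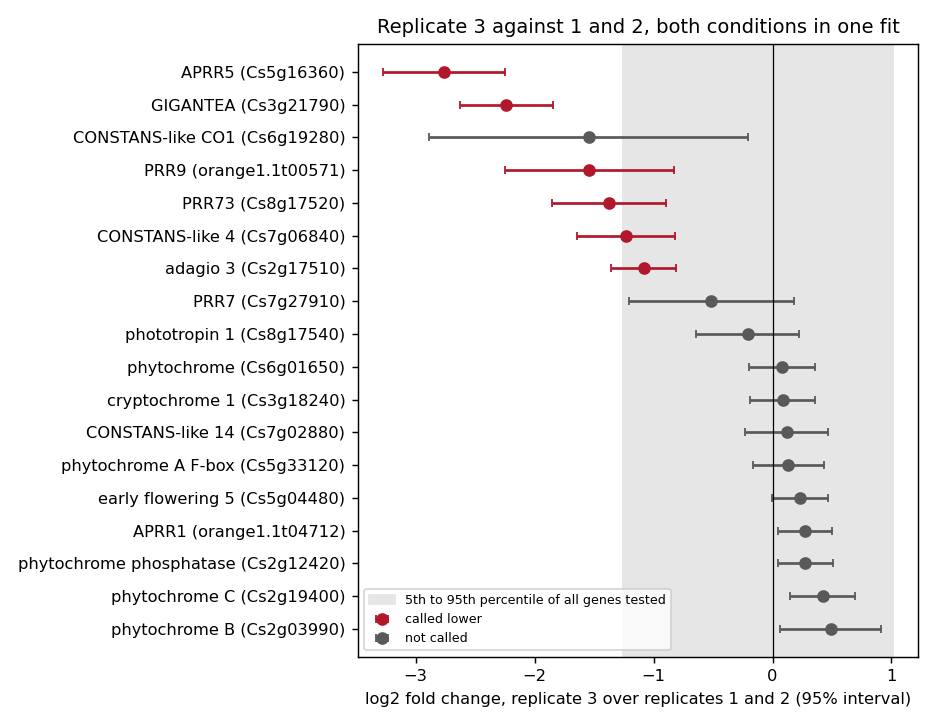
Log2 fold change of replicate 3 over replicates 1 and 2 (horizontal axis) for the 18 tested clock and light genes, with points for the fitted values, bars for 95% intervals, red for genes called lower, and grey shading for the range from the 5th to the 95th percentile of all genes tested (-1.26 to 1.01). APRR5, GIGANTEA, PRR9 and PRR73 are called and lie left of the shading, the uncalled CO1 does too, and the photoreceptor genes lie between -0.21 and 0.49.

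Counted by order alone, 7 of the 18 genes had replicate 3 below replicates 1 and 2 in both conditions (the 6 called genes and CO1), where 24.5% of all genes tested did. A further 5 had replicate 3 above in both conditions (APRR1, early flowering 5, phytochrome B, phytochrome C and the phytochrome-associated phosphatase gene Cs2g12420), where 30.6% of all genes tested did.

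Taken in each condition by itself, from a fit that lets the change of replicate 3 differ between Gv and Ck, 4 of the 18 genes were called lower in Gv, where 2.08% of all genes were, and 4 in Ck, where 6.60% were. Each condition has 1 library of replicate 3 in this fit, so its spread, and the calls from it, rest on replicates 1 and 2 alone. GIGANTEA (Cs3g21790) had a log2 fold change of -2.43 in Gv and -2.06 in Ck. APRR5 (Cs5g16360) had -3.20 in Gv and -2.36 in Ck, and adagio 3 (Cs2g17510) had -1.02 in Gv and -1.15 in Ck. Each of these genes was called in both. PRR73 (Cs8g17520) was called in Gv at -1.80 and stood just under the limit in Ck at -0.997, with an adjusted p of 0.0122. CONSTANS-LIKE 4 (Cs7g06840) was called in Ck at -1.51 and stood just under the limit in Gv at -0.96, with an adjusted p of 0.0378. PRR9 (orange1.1t00571) had -1.60 in Gv and -1.46 in Ck, and was called in neither (adjusted p = 0.0706 and 0.0812).

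The difference of these changes between Gv and Ck was tested itself. That test called 0 of the 18 genes and 0.0676% of all genes. The smallest adjusted p of the group were 0.191 for PRR73 (difference -0.80, 95% interval -1.29 to -0.32) and 0.21 for APRR5 (difference -0.84, 95% interval -1.37 to -0.31). Both values were further below 0 in Gv than in Ck, and neither was called over all genes. The spread of this test comes from replicates 1 and 2 alone, since each condition has 1 library of replicate 3.

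The second question is how Gv differed from Ck. Over all 3 replicates, edgeR called 0 of the 18 genes and 0% of all genes tested. An unadjusted p under 0.05 was found for 0 of the 18 and 744 of all genes. The smallest adjusted p over all genes was 0.270, so the 2 phosphate transporter genes that set Gv apart from Ck were not called either. The study's own test (NOISeq) did call genes in this contrast. The lack of a call in this fit therefore does not show that a gene was unchanged. DESeq2 called 193 genes, none of the 18. The log2 fold changes of the 18 ran from -0.35 for CONSTANS-LIKE 14 (Cs7g02880) to 0.63 for PRR9 (orange1.1t00571), with an adjusted p of 0.9999 for each. With the replicate number as a block, 0.995% of all genes were called and none of the 18, whose smallest adjusted p was 0.424, for CONSTANS-LIKE 14. From replicates 1 and 2 alone, 1.25% of all genes were called and again none of the 18, with the smallest adjusted p of 0.0981 for APRR5 (Cs5g16360, log2 fold change 0.61).

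The spread that the replicate number brings is plain in the means. GIGANTEA (Cs3g21790) averaged 30.5 ± 19.7 RPKM in Gv and 27.5 ± 16 RPKM in Ck (SD, n = 3 each), and APRR5 (Cs5g16360) averaged 26.2 ± 19.1 RPKM in Gv and 17.6 ± 11.0 RPKM in Ck. For APRR1 (orange1.1t04712), which varied little with the number, the means were 29.5 ± 3.97 RPKM in Gv and 33.9 ± 4.55 RPKM in Ck. The 95% interval of the log2 fold change of Gv over Ck was -1.68 to 1.92 for GIGANTEA and narrowed to -0.31 to 0.39 with the block. That of APRR5 was -1.58 to 2.68, and -0.12 to 0.86 with the block.

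Within a replicate number, the ratio of Gv over Ck was taken from 1 library each, with 95% exact intervals that cover counting error only. Reads were scaled by the library totals, not by the TMM scaling of the tests. The TMM factors of replicate 2 were 1.01 in Gv and 0.955 in Ck. Ratios near 1 in replicate 2, and the counts of genes higher and lower there, thus depend on the scaling. In replicate 1, 11 of the 18 genes were higher in Gv and 7 lower, with ratios of 0.751 to 1.95 and a median of 1.06. In replicate 2, 11 were higher and 7 lower (0.707 to 3.05, median 1.05), and in replicate 3, 6 were higher and 12 lower (0.592 to 1.40, median 0.873). The intervals left out 1 for 8, 7 and 8 genes in replicates 1, 2 and 3, and the share over all genes was not counted. For these pairs of libraries the chi-square of the read counts per gene over all genes was 8.06, 6.65 and 20.7. Genes at large thus differed by more than counting error, and an interval that leaves out 1 does not set a gene apart.

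GIGANTEA (Cs3g21790) was 1.15 times the Ck level in Gv replicate 1 (interval 1.08 to 1.23), 1.13 times in replicate 2 (1.07 to 1.20) and 0.847 times in replicate 3 (0.743 to 0.966). APRR5 (Cs5g16360) was 1.63 times the Ck level in Gv replicate 1 (1.47 to 1.81), 1.48 times in replicate 2 (1.34 to 1.63) and 0.836 times in replicate 3 (0.640 to 1.09). PRR73 (Cs8g17520) was 1.1 times the Ck level in Gv replicate 1 (1.02 to 1.19), 1.05 times in replicate 2 (0.973 to 1.13) and 0.592 times in replicate 3 (0.521 to 0.673). On which side of 1 the PRR73 ratio of replicate 2 falls depends on the scaling by library totals. For these 3 genes the ratio was above 1 in replicates 1 and 2 and under 1 in replicate 3, and the tests of that difference are those given above for PRR73 and APRR5, with an adjusted p of 0.60 for GIGANTEA.

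Only cryptochrome 1 (Cs3g18240) had every Gv library above every Ck library among the 18 genes, where 5.35% of all genes tested had Gv above Ck throughout and 8.61% had conditions that did not overlap in either direction. The count of the 18 is thus near the background. It averaged 36.6 ± 3.96 RPKM in Gv and 29.9 ± 1.40 RPKM in Ck (SD, n = 3 each), and was 1.1, 1.19 and 1.38 times the Ck level in replicates 1, 2 and 3. The log2 fold change of Gv over Ck was 0.28, with a 95% interval from -0.04 to 0.61 and an adjusted p of 0.9999 (0.593 with the block). APRR1 (orange1.1t04712) was below Ck in each replicate number, at 0.859, 0.884 and 0.870 times, each with an interval that left out 1, but the conditions overlapped across numbers. In all, 3 of the 18 genes were above Ck in all 3 numbers (with PRR9 and adagio 3) and 3 below (with CONSTANS-LIKE 14 and the phytochrome-associated phosphatase gene), near the 16.1% and 13.1% of all genes tested.

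**Figure D3:**
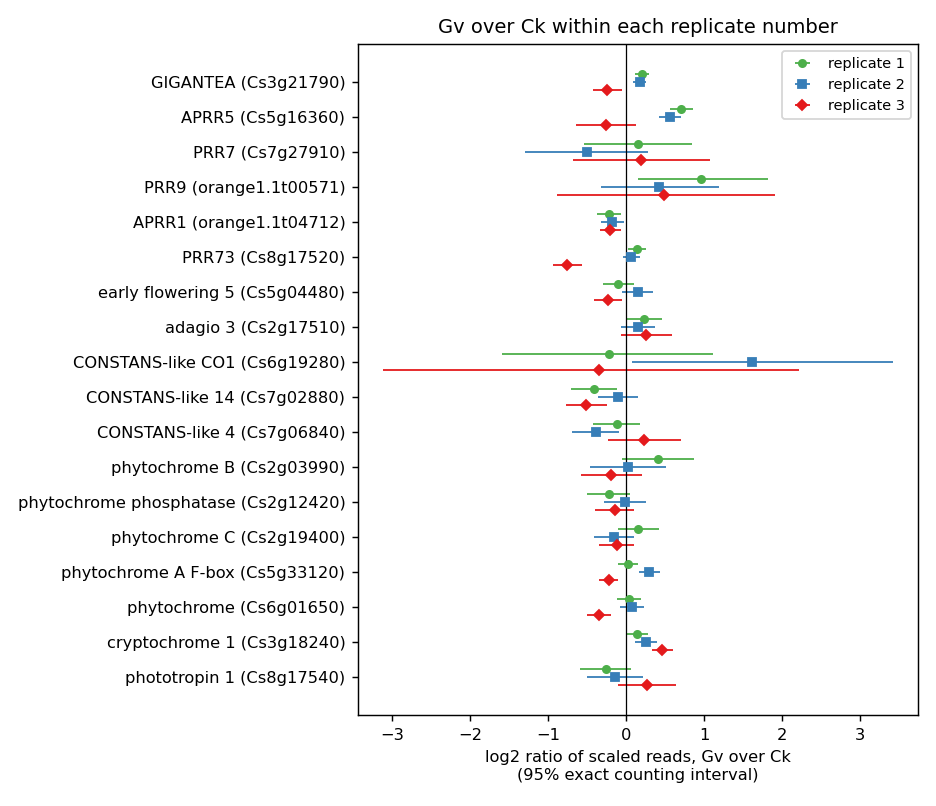
Log2 ratio of the scaled reads of Gv over Ck (horizontal axis) within replicate 1 (green circles), replicate 2 (blue squares) and replicate 3 (red diamonds) for the 18 tested genes, with 95% exact counting intervals. For GIGANTEA, APRR5 and PRR73 the red diamond lies left of 0 and the other points right of it, for APRR1 all 3 lie left, and for cryptochrome 1 all 3 lie right. Reads were scaled by library totals.

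Many clock genes of Citrus carry a protein match that does not name them and are found through their KEGG entry or through other words. A list of such genes, with light signalling and clock output genes, held 82 further genes, of which 65 were tested. In replicate 3, 10 of the 65 (15.4%) were called lower, beside 5.57% of all genes, and 0 higher, with a median log2 fold change of -0.05 against 0.01 over all genes. Among the 9 tested clock genes named by KEGG, 3 were called lower and 0 higher. The groups are small, and their counts are a description only.

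The dawn repressor LHY was represented by 2 genes that only their KEGG entries name so, and which clock MYB each one is remains uncertain. The more abundant one (orange1.1t00580) had 91 reads in Gv replicate 3, against 559 and 636 in Gv replicates 1 and 2, and 158 reads in Ck replicate 3, against 348 and 295 in Ck replicates 1 and 2. Replicate 3 was again the lowest of each condition, with a log2 fold change of -1.81 (SE 0.35, adjusted p = 0.0153). It was -2.68 in Gv and -1.08 in Ck, and that difference had an adjusted p of 0.075. Gv was 1.65 and 2.20 times the Ck level in replicates 1 and 2 and 0.605 times in replicate 3. The other LHY gene (Cs5g16540) had 23 reads in Gv replicate 3, against 47 and 51 in Gv replicates 1 and 2, and 13 reads in Ck replicate 3, against 36 and 30 in Ck replicates 1 and 2 (log2 fold change -1.20, adjusted p = 0.0168). PRR7 by KEGG (Cs6g03960) was the most abundant clock gene of either list, with 33.7 RPKM in Gv replicate 3, against 96.7 and 92.0 RPKM in Gv replicates 1 and 2, and 50.6 RPKM in Ck replicate 3, against 70.1 and 81.8 RPKM in Ck replicates 1 and 2 (log2 fold change -1.06, adjusted p = 0.0196).

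The other 6 tested clock genes by KEGG were not called. A gene named PRR1 by KEGG and GATA transcription factor by its protein match (Cs3g17050) had 5.62 RPKM in Gv replicate 3, against 6.65 and 5.84 RPKM in Gv replicates 1 and 2, and 5.13 RPKM in Ck replicate 3, against 6.10 and 6.79 RPKM in Ck replicates 1 and 2 (log2 fold change -0.29, adjusted p = 0.18), where APRR1 was highest in replicate 3. The genes Cs6g16000 and orange1.1t00411, named CCA1 only by their KEGG entries, had log2 fold changes of 0.11 and 0.27. Their protein matches are uncharacterized or hypothetical proteins, so whether they are CCA1 remains uncertain. The genes Cs1g19130 and Cs4g18880, named ELF3 of the evening complex only by KEGG, had 0.12 and 0.42. The blue-light F-box gene ZTL (Cs4g03650), which unlike FKF1 is not cyclic in its transcript in Arabidopsis, had -0.08. These values are under a log2 unit in size, where GIGANTEA, APRR5 and the more abundant LHY gene had -2.24, -2.76 and -1.81.

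**Figure D4:**
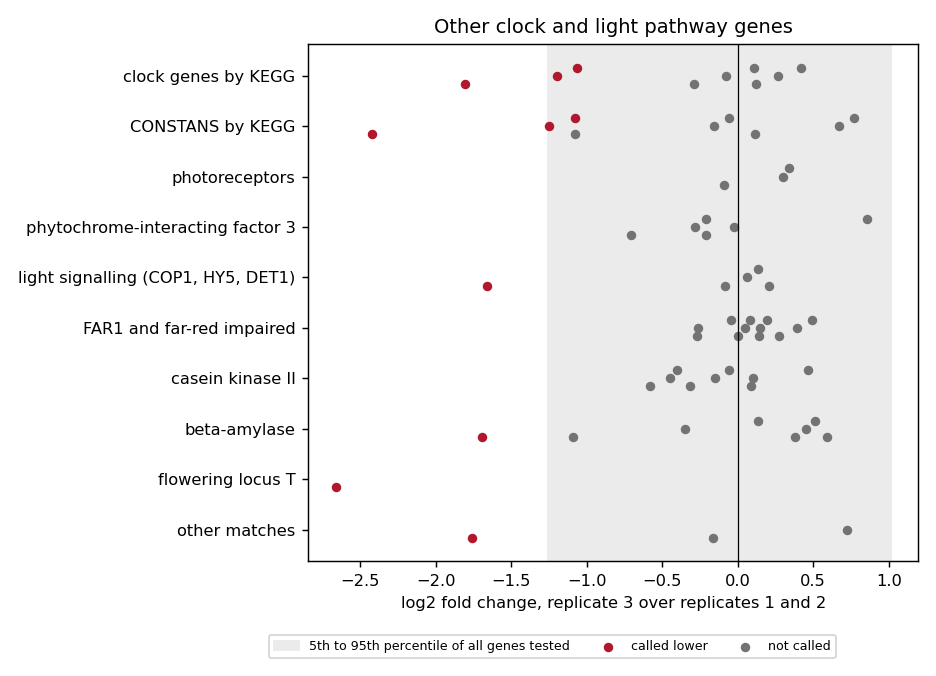
Log2 fold change of replicate 3 over replicates 1 and 2 (horizontal axis) for the 65 tested genes of the further list, 1 point per gene, in rows by annotation group, with red for the 10 genes called lower and grey shading for the 5th to 95th percentile of all genes tested. The called genes sit in the clock, CONSTANS, light signalling, beta-amylase, flowering locus T and other rows, and the photoreceptor, phytochrome-interacting factor 3, FAR1 and casein kinase II rows hold none.

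Clock output and light signalling genes were among the 10 as well, in a fit that called 5.57% of all genes lower. Of 9 tested genes with a CONSTANS KEGG entry, 3 were called lower, and the median of the 9 was -0.16. They were Cs1g10610 (log2 fold change -1.25, adjusted p = 0.0246), Cs3g25620 (-1.08, adjusted p = 0.0185) and Cs4g02910, which had 7.69 RPKM in Gv replicate 3, against 51.3 and 49.9 RPKM in Gv replicates 1 and 2, and 6.60 RPKM in Ck replicate 3, against 28.1 and 25.2 RPKM in Ck replicates 1 and 2 (log2 fold change -2.42, adjusted p = 0.00287). In Gv alone, where replicate 3 is 1 library, Cs2g13230 and Cs2g19010 with a CONSTANS KEGG entry were instead higher in it. Their log2 fold changes there were 1.07 and 1.31. Among 5 tested genes of the COP1, HY5 and DET1 group, whose median was 0.06, 1 was called. HY5 (Cs6g16800), a bZIP factor of light signalling that also acts in roots, had 31.7 RPKM in Gv replicate 3, against 92.9 and 82.0 RPKM in Gv replicates 1 and 2, and 19.5 RPKM in Ck replicate 3, against 47.2 and 84.8 RPKM in Ck replicates 1 and 2 (log2 fold change -1.66, adjusted p = 0.0105). Beta-amylases break down starch, and 1 of 8 tested was called lower, with a median of 0.26 for the 8. The called gene (orange1.1t03470) had 57.8 RPKM in Gv replicate 3, against 163 and 142 RPKM in Gv replicates 1 and 2, and 28.4 RPKM in Ck replicate 3, against 74.0 and 138 RPKM in Ck replicates 1 and 2 (log2 fold change -1.69, adjusted p = 0.0128). The beta-amylase gene Cs2g22040 was instead highest in replicate 3, with 72.2 RPKM in Gv replicate 3, against 56.4 and 49.2 RPKM in Gv replicates 1 and 2, and 72.5 RPKM in Ck replicate 3, against 56.0 and 43.2 RPKM in Ck replicates 1 and 2 (log2 fold change 0.45, adjusted p = 0.0472, under the fold limit). The flowering locus T-like gene Cs8g15080 rested on 2 reads in replicate 3 of each condition. The gene Cs3g12570 matched the list only as a phosphoglycerate mutase whose name contains DET1.

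No FAR1 gene (12 tested), casein kinase II gene (9), phytochrome-interacting factor 3 gene (6) or further photoreceptor gene (3) was called in replicate 3. Beside the 9.71% of all genes called, groups of this size do not stand out by having none. In Gv against Ck, 0 of the 65 were called, and 3 had an unadjusted p under 0.05, beside 744 of all 16281 genes tested. The conditions did not overlap for 8 of the 65, beside 8.61% of all genes. One of them was the ELF3 gene Cs1g19130, with 3.46, 4.16 and 5.10 RPKM in Gv replicates 1, 2 and 3, against 6.89, 7.64 and 7.01 RPKM in Ck replicates 1, 2 and 3 (log2 fold change -0.78, adjusted p = 0.464, and 0.177 with the block). From replicates 1 and 2 alone, 3 of the 65 passed the adjusted p but not the fold limit. Cs4g02910 (log2 fold change 0.90, adjusted p = 0.021) and the LHY gene orange1.1t00580 (0.90, adjusted p = 0.0301) were higher in Gv, and Cs2g19010 (-0.79, adjusted p = 0.0495) was lower. The share of all genes that passed the adjusted p alone was not counted, so these 3 are a description only.

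The 28 transporter genes matched through influx and efflux are given for completeness. Of these, 18 passed the filter, 0 were called in replicate 3, beside 9.71% of all genes, and their log2 fold changes ran from -0.98 to 0.78. In Ck alone 1 of the 18 was called lower, beside 6.60% of all genes, the auxin influx carrier gene Cs8g02900 at -1.39, with 77 reads in Ck replicate 3, against 214 and 173 in Ck replicates 1 and 2.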

How the data were processed

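Lateral root RNA of 3 Gv and 3 Ck replicates was sequenced. The authors discarded poor reads, used SOAPaligner/SOAP2 (2 mismatches) to place the others on the sweet orange (Citrus sinensis) genome, and deposited, for each gene, the count of uniquely aligned reads, not normalized. They also deposited the RPKM of each gene and, as a percent, how much of the gene the reads covered. The version of the genome annotation, the use of strand and whether listed lengths include introns are not given in the sources used here. RPKM is low for a gene whose listed length holds parts without reads.

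The 6 tables were joined on the gene identifier, with a gene not listed set to 0 reads. Genes were taken by their annotation. The members, the lists and the contrast of replicate 3 were chosen with earlier results of these data known. The p-values for replicate 3 are therefore not those of a contrast planned before the data were seen. Of the genes the search returned, every tested one of the clock roles is given with its values, and of the other roles the called genes and the most abundant one. Counts (library totals of 4.34 to 4.71 M reads) were tested with edgeR 4.0.16 (R 4.3.3, filterByExpr, TMM scaling, quasi-likelihood test). The p-values were adjusted by Benjamini-Hochberg over the 16281 genes tested, and calls needed both an adjusted p under 0.05 and an absolute log2 fold change of 1 or more. Replicate 3 was set against 1 and 2 with the condition as a term, and Gv against Ck without a block, as the study's own test used none. That test (NOISeq) was not used here. DESeq2 1.42.0 and limma 3.58.1 on log2 RPKM were alternatives. The scripts were tested on simulated data. The labels do not say that the replicate numbers pair the libraries. In a check of the data, the libraries numbered 2 and 3 each correlated most with the same number in the other condition. For number 1 this held for the Ck library but not for the Gv library. Deviations from the condition means correlated by 0.357, 0.481 and 0.613 for libraries numbered 1, 2 and 3, across genes. Gv replicate 1 correlated more with Ck replicate 2 (0.429) than with Ck replicate 1, and Gv replicate 2 with Ck replicate 1 by 0.272. Deviations within a condition cancel out, so a shared shift of number 3 alone raises the correlations among numbers 1 and 2. The check thus cannot pair numbers 1 and 2, and the block and the ratios within those numbers rest on the numbering alone.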

Additional observations from a re-analysis of the deposited data

How the results depend on the processing

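GIGANTEA and APRR5 were called lower in replicate 3 under all 14 alternatives that keep the fold limit, with log2 fold changes of -2.44 to -2.05 and -3.21 to -2.35. Over these and the 2 fits by condition, which were chosen after seeing the data, the number of clock and light genes called was 4 to 6 in replicate 3, and 0 in Gv against Ck and in the difference between conditions. The count of all genes called in replicate 3 was 1581, 3575 with no fold limit, 902 from Gv alone, and 933 to 1716 with 1 library left out, lowest without Ck replicate 3. For Gv against Ck it was 0, and 193 with DESeq2, 21 and 72 with limma on log2(RPKM + 0.5) and log2(RPKM + 0.1), 205 from replicates 1 and 2 alone, 162 with the replicate block, and 0 to 69 with 1 library left out (69 without Gv replicate 3). The replicate block changed no call of a clock or light gene. For the difference between conditions it was 11, and 124 with DESeq2, 88 with library totals, 41 with upper-quartile scaling, 25 with no filter, 0 with limma at either pseudocount, and 0 to 119 with 1 library left out (0 without Gv replicate 1 or 2, 119 and 59 without Ck replicate 1 or 2). The cause of these shifts was not tested.

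Signs turned only for genes that were not called. In replicate 3 these were the phytochrome gene Cs6g01650 (-0.10 in Gv alone, -0.11 to 0.26 with 1 library left out), cryptochrome 1 (Cs3g18240, -0.077 in Ck alone, -0.071 to 0.23) and phototropin 1 (Cs8g17540, 0.046 in Gv alone, -0.47 to 0.039). In Gv against Ck with 1 library left out they were GIGANTEA (Cs3g21790, -0.29 to 0.58), PRR7 (Cs7g27910, -0.33 to 0.080), early flowering 5 (Cs5g04480, -0.16 to 0.043), adagio 3 (Cs2g17510, -0.10 to 0.45), CONSTANS-LIKE 4 (Cs7g06840, -0.53 to 0.098), phototropin 1 (Cs8g17540, -0.21 to 0.091) and PRR73 (Cs8g17520, -0.31 to 0.34). From replicates 1 and 2 alone they were Cs6g01650 (0.028) and PRR73 (Cs8g17520, 0.073). In the difference between conditions they were APRR1 (orange1.1t04712, -0.0016 with library totals, -0.036 with upper-quartile scaling, -0.0027 and -0.0022 with limma, -0.0090 to 0.10 with 1 library left out), PRR9 (orange1.1t00571, -0.42 to 0.090) and CONSTANS-LIKE 14 (Cs7g02880, -0.41 to 0.0015). Replicate 3 is 1 library per condition, and what sets it apart cannot be told apart from the replicate number.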
